A study of Mus musculus with 20 samples.

Results

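The 10 genes described here are the cholinergic receptors and enzymes of the mouse amygdala: the muscarinic receptors Chrm1, Chrm2, Chrm3, Chrm4 and Chrm5, the nicotinic receptor subunits Chrna4, Chrna7 and Chrnb2, and the enzymes Chat and Ache. They were taken by gene symbol, and each had 1 probe set with a single symbol, so that they make 10 of the 28767 probe sets and 10 of the 19933 single symbols of the table. The set was drawn up because of Chrm1, whose values in the comparisons WT stress vs. con, KO vs. WT after stress and their interaction were already known. Those 3 Chrm1 values are therefore given as a description without a test.

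The study asked how a short stressor and the genotype of the serotonin transporter (5-HTT, gene Slc6a4) act on the first transcripts of the amygdala. RNA of both amygdalae of 20 male mice, 7 months old, was hybridized to whole-transcript gene arrays, 1 mouse per array and 5 arrays per group. KO stress mice lacked 5-HTT and had spent 1 min in cold water (22 °C), and KO con mice lacked 5-HTT and had stayed in the home cage for 1 min. WT stress and WT con mice were wildtype and had been treated in the same 2 ways. All mice, controls included, came from heterozygous parents on a C57BL/6 background, had been singly housed, had been tested in the elevated plus-maze before, and were anaesthetized with isoflurane and decapitated right after that minute. The knockout is constitutive, so that these mice lacked the transporter in every tissue from conception on.

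Acetylcholine is made by choline acetyltransferase (Chat), packed into vesicles by Slc18a3 and broken down by acetylcholinesterase (Ache), after which choline is taken up again by Slc5a7. The basolateral amygdala is densely supplied with acetylcholine by neurons of the basal forebrain. M1, M3 and M5 receptors couple to Gq and phospholipase C, whereas M2 and M4 couple to Gi and Go and lower cyclic AMP. Nicotinic receptors are ion channels, of which those of alpha4 with beta2 subunits and those of alpha7 alone are the common types of the brain.

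Values are log2 signals as deposited. A difference of 1 on this scale is a doubling, and levels were compared for the same probe set only. Array medians lay between 6.59 and 6.82, and WT stress replicate 1 and WT con replicate 1 had the lowest median correlations with the other arrays (0.961 and 0.978). The Slc6a4 probe set separated the genotypes without overlap, at 8.10 to 8.38 in the 10 KO arrays and at 5.82 to 7.82 in the 10 WT arrays. The higher signal in arrays labelled KO is the reverse of a lost transcript. No source used here places these probes inside or outside the targeted exons, so the level checks no loss, and the genotype of every comparison rests on the labels.

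Chrm1, the M1 receptor of principal neurons (probe set 10461143, chromosome 19, 8664005 to 8683606 of GRCm38.p6), was highest in WT stress. Its levels were 7.77, 7.69, 7.86, 8.13 and 7.30 in KO stress, and 8.86, 7.97, 7.16, 7.53 and 7.99 in KO con. They were 8.44, 8.29, 8.37, 9.12 and 8.41 in WT stress, and 8.45, 7.42, 7.76, 7.18 and 7.31 in WT con. All 5 WT stress arrays thus lay above all 5 KO stress arrays, and above 4 of the 5 WT con arrays. The group means were 7.75 ± 0.30 in KO stress, 7.90 ± 0.64 in KO con, 8.53 ± 0.34 in WT stress and 7.63 ± 0.51 in WT con (SD, n = 5 each), and the 3 lower groups overlapped one another. In bulk tissue, fewer cells that express a gene and less RNA of it per cell cannot be told apart.

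WT stress exceeded WT con in Chrm1 by 0.90 (SE 0.28), that is 1.87-fold, and KO stress lay below WT stress by 1.71-fold (-0.77, SE 0.28). The stress difference in KO minus that in WT was -1.05 (SE 0.39). WT con replicate 1, at 8.45, was the highest of its group. Without it the WT con arrays lay at 7.18 to 7.76, below every WT stress array, and the difference of WT stress vs. con was 1.11. WT stress replicate 4, at 9.12, was far above its group, and without it the differences were -0.63 for KO stress vs. WT stress and 0.75 for WT stress vs. con. The comparisons that had not led to the choice of Chrm1, though they share their groups with those that did, gave differences whose intervals include 0. KO con exceeded WT con by 0.28 (95% interval -0.31 to 0.86, adjusted p = 0.929, limma), and KO stress minus KO con was -0.15 (95% interval -0.74 to 0.43, adjusted p = 1.00, limma). This second difference changed its sign to 0.09 without KO con replicate 1, the array at 8.86.

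**Figure D1:**
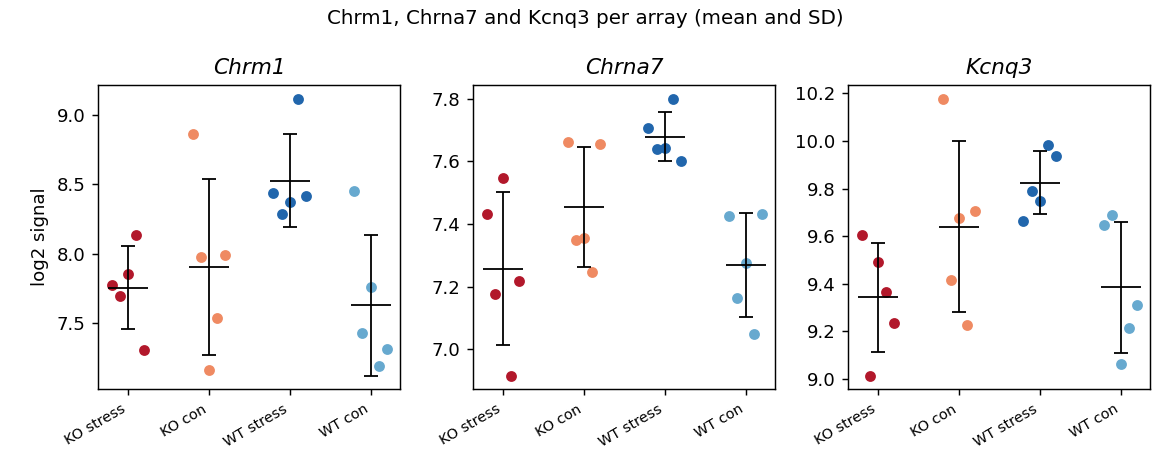
Log2 signal of Chrm1, Chrna7 and Kcnq3 in each of the 20 arrays, by group. Points are arrays in the order of their replicate numbers, long bars are means and whiskers are SD of 5 arrays. WT stress has the highest mean for each gene, and for Chrm1 a single WT con array reaches its range. KO con overlaps WT stress for each gene, and KO con replicate 1 lies within the WT stress range for Chrm1 (8.86) and above it for Kcnq3 (10.18).

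Chrna7, which encodes the alpha7 nicotinic subunit, was likewise highest in WT stress. This probe set (10564272, chromosome 7, 63098692 to 63212526) had levels of 7.43, 7.18, 7.55, 6.92 and 7.22 in KO stress, and of 7.66, 7.35, 7.36, 7.25 and 7.66 in KO con. In WT stress they were 7.71, 7.64, 7.64, 7.80 and 7.60, and in WT con 7.42, 7.16, 7.28, 7.05 and 7.43. The 5 WT stress values were the most tightly spaced of the 4 groups, with an SD of 0.077, and all of them lay above every KO stress and every WT con array. KO con lay in between and overlapped all 3 other groups. The WT stress mean exceeded that of WT con by 0.41 (1.33-fold, 95% interval 0.18 to 0.64), and the KO stress mean was below that of WT stress by 1.34-fold (-0.42, 95% interval -0.65 to -0.19). Neither difference passed the adjustment over all probe sets (adjusted p = 1.00 and 0.530, limma), and neither reached the fold of 1.5 that the study asked for. The stress difference in KO minus that in WT was -0.61 (95% interval -0.94 to -0.28, adjusted p = 1.00, limma).

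Over the whole table, WT stress lay above both WT con and KO stress without overlap in 10 probe sets, or 0.0348%, and Chrna7 was the 1 member among them. Of all probe sets, 0.257% did not overlap between WT stress and WT con, and 1.02% between KO stress and WT stress. Chrna7 was singled out after its values had been seen.

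The 250 bases before the Chrna7 start are shown because this member had the tightest stress values and its window is rich in G and C (67.2%, against a median of 52.4% over all windows). The windows of Chrna4 (74.4%), Ache (73.6%) and Chrm4 (70%) were richer still, so this is not particular to Chrna7. The Chrna7 sequence is that of RefSeq on GRCm38.p6, chr7:63212527-63212776, minus strand. Capitals mark matches on either strand to the letters GGGCGG, a GC box bound by Sp factors, and GCGNGGGCG, a site of Egr factors, which are products of early stress-responsive genes.
Chrna7: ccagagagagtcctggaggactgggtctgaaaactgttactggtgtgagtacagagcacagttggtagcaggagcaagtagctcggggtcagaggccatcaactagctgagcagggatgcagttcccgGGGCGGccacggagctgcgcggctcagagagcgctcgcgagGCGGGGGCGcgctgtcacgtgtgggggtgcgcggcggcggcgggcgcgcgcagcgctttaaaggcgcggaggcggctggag
The GC box lies at -122 to -117 and the Egr match at -81 to -73 from the start, and they do not overlap. GGGCGG was found in 32.7% and GCGNGGGCG in 4.7% of all 32851 windows of this length. The letters of the cyclic AMP response element (TGACGTCA), present in 1.55% of windows, are in none of the windows of the 9 members with an entry. Besides Chrna7, the Egr letters occurred in the window of Ache, with 2 matches, and GC boxes in those of Chrm2, Chrm4, Chrna4 and Ache. These matches describe the sequence and say nothing of binding.

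For each of the other muscarinic receptors the interval included 0 in all 4 comparisons. Those of Chrm2, the M2 receptor found on cholinergic terminals and on interneurons, had the opposite sign to Chrm1 after stress. Its levels were 9.52, 9.61, 9.64, 9.28 and 9.84 in KO stress, and 8.91, 9.90, 10.17, 9.97 and 9.04 in KO con. They were 8.08, 9.75, 9.68, 8.83 and 9.46 in WT stress, and 8.91, 9.75, 9.78, 9.88 and 9.80 in WT con. WT stress replicates 1 and 4 were the lowest and the groups overlapped throughout. The means differed by 0.42 for KO stress vs. WT stress (95% interval -0.22 to 1.05, adjusted p = 0.590, limma) and by -0.46 for WT stress vs. con (95% interval -1.10 to 0.18, adjusted p = 1.00, limma). Without WT stress replicate 1 the 2 differences were 0.14 and -0.19, and with other single arrays left out they reached 0.56 and -0.64.

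Chrm3, a second Gq-coupled receptor, averaged 8.51 ± 0.33 in KO stress, 8.56 ± 0.13 in KO con, 8.80 ± 0.56 in WT stress and 8.54 ± 0.47 in WT con (SD, n = 5 each). Its difference of 0.26 in WT stress vs. con had an interval of -0.25 to 0.77, and became 0.06 without WT con replicate 1, 0.07 if WT stress replicate 4 was left out, and -0.02 when the level of pallial neuron markers was a covariate. Chrm4, the Gi-coupled M4 receptor of striatal-type neurons, averaged 8.17 ± 0.23 in KO stress, 8.32 ± 0.55 in KO con, 8.21 ± 0.61 in WT stress and 7.92 ± 0.66 in WT con. WT con replicate 1 was at 9.08 while the other WT con arrays lay at or below 7.72. With that array the KO con mean exceeded the WT con mean by 0.41 (95% interval -0.27 to 1.08), and without it by 0.70. Chrm5, the least common muscarinic subtype of the brain, averaged 7.18 ± 0.55 in KO stress, 7.11 ± 0.42 in KO con, 6.94 ± 0.62 in WT stress and 6.83 ± 0.13 in WT con, and its largest difference was 0.28 for KO con vs. WT con (95% interval -0.31 to 0.87, and 0.13 without KO con replicate 2).

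For both subunits of the alpha4 beta2 receptor the intervals included 0 in all 4 comparisons. Chrna4 averaged 8.29 ± 0.36 in KO stress, 8.60 ± 0.64 in KO con, 8.29 ± 0.54 in WT stress and 8.40 ± 0.69 in WT con, with its largest difference for KO stress vs. con (-0.31, 95% interval -1.03 to 0.41, and -0.03 without KO con replicate 3). Chrnb2 averaged 7.88 ± 0.12 in KO stress, 7.90 ± 0.29 in KO con, 7.69 ± 0.35 in WT stress and 7.91 ± 0.17 in WT con (SD, n = 5 each). Their levels went together over the 20 arrays, with r = 0.78 (rho = 0.83), and with r = 0.81 once group means were subtracted. Chrna7 did not share in this, with r = -0.33 to Chrna4 and -0.49 to Chrnb2.

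**Figure D2:**
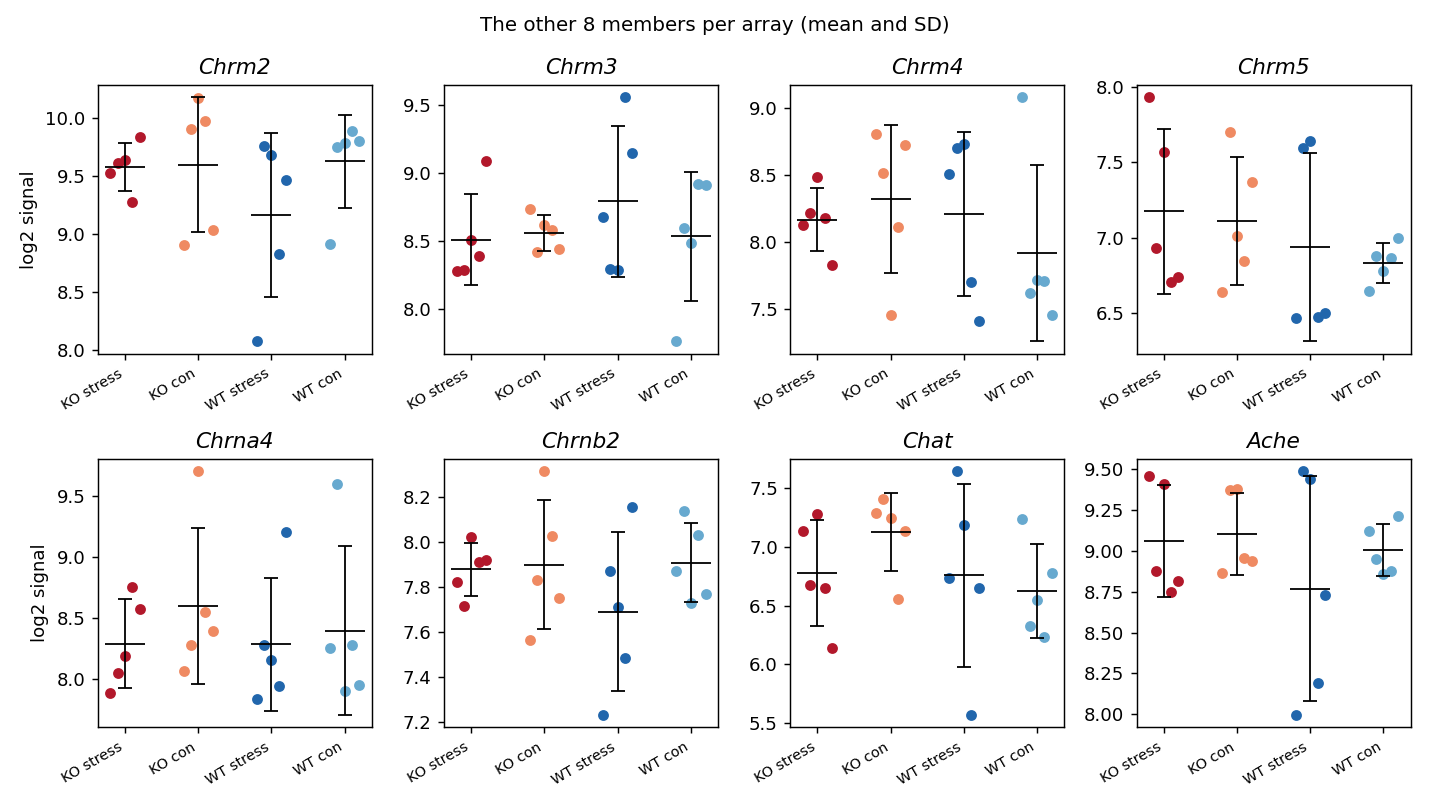
Log2 signal of the 8 members other than Chrm1 and Chrna7 in each of the 20 arrays, by group. Points are arrays in the order of their replicate numbers, long bars are means and whiskers are SD of 5 arrays. All groups overlap for each of these genes, and single arrays such as WT con replicate 1 for Chrm4 set much of the spread.

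Of the enzymes, Chat, which makes acetylcholine, had its highest mean in KO con. Its levels were 7.14, 6.68, 7.28, 6.65 and 6.14 in KO stress, and 7.29, 7.41, 7.24, 6.56 and 7.13 in KO con. They were 6.74, 7.65, 7.19, 5.57 and 6.65 in WT stress, and 7.24, 6.33, 6.55, 6.24 and 6.78 in WT con. The groups overlapped, and WT stress held both the highest and the lowest of the 20 values. KO con exceeded WT con by 0.50 (95% interval -0.15 to 1.15, adjusted p = 0.929, limma), and KO stress minus KO con was -0.35 (SE 0.31, adjusted p = 1.00, limma), or -0.19 without KO stress replicate 5. Ache, which ends the signal of acetylcholine at the synapse, averaged 9.06 ± 0.34 in KO stress, 9.10 ± 0.25 in KO con and 8.77 ± 0.69 in WT stress (SD, n = 5 each), and lay at 8.86 to 9.22 in WT con. Its largest difference was 0.29 for KO stress vs. WT stress (95% interval -0.23 to 0.81), which was 0.06 with array weights and 0.10 to 0.47 with single arrays left out, the ends without WT stress replicate 1 and WT stress replicate 2.

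The vesicular transporter Slc18a3 and the choline transporter Slc5a7, which belong to the same neurons but are no members, followed Chat from array to array. WT stress replicate 4 was the lowest of all arrays for each of the 3 genes, at 5.57 for Chat, 6.56 for Slc18a3 and 5.95 for Slc5a7. KO stress replicate 5 was the lowest of its group in each, at 6.14, 6.99 and 6.65. Over the 20 arrays, r was 0.90 for Chat with Slc18a3, 0.93 for Chat with Slc5a7 and 0.93 for Slc18a3 with Slc5a7. With group means subtracted the 3 values of r were 0.90, 0.93 and 0.93. These genes thus varied jointly within the groups.

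**Figure D3:**
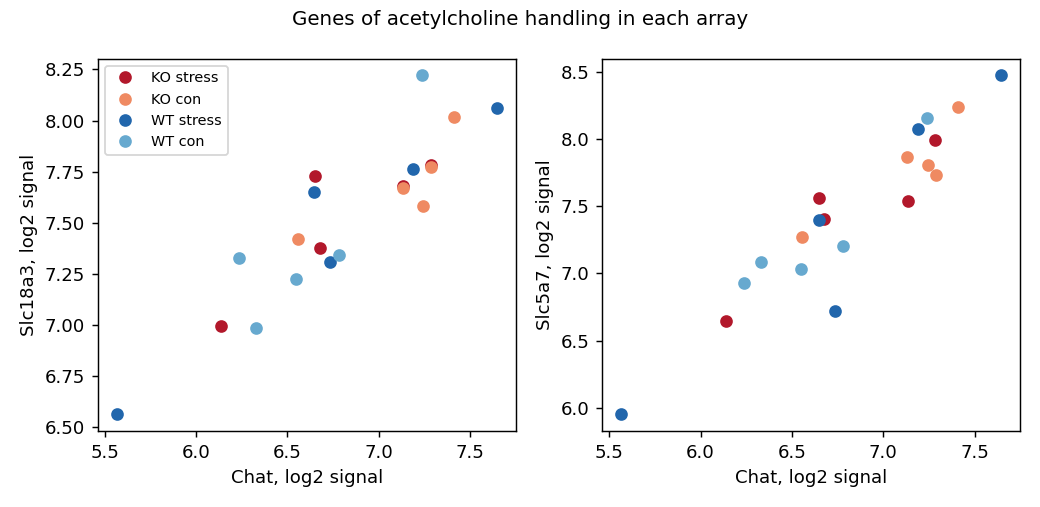
Log2 signal of Slc18a3 and of Slc5a7 against that of Chat, 1 point per array, coloured by group. The points follow a common line (r = 0.90 and 0.93 over 20 arrays), with WT stress replicate 4 at the lower end.

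Slc18a3 lies inside the Chat gene, at 32462437 to 32464850 within 32408203 to 32465909 of chromosome 14, both on the minus strand. This arrangement is known as the cholinergic gene locus. The 250 bases before each start are shown because these genes moved together while lying close to each other. Capitals mark the E-box letters CAGCTG in Chat (chr14:32465910-32466159) and the GC box GGGCGG, here on the opposite strand, in Slc18a3 (chr14:32464851-32465100).
Chat: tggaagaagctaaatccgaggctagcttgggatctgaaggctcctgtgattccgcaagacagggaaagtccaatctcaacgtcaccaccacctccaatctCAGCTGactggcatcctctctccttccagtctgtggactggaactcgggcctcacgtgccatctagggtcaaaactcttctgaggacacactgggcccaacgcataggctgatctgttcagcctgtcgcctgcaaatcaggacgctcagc
Slc18a3: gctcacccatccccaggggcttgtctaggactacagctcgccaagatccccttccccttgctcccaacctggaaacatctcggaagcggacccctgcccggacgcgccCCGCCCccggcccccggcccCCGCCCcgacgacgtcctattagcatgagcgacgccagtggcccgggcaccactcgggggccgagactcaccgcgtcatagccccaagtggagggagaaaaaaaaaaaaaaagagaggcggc
CAGCTG was present in 13% of all windows. The Chat window held 1 such match and no GC box, and the Slc18a3 window held 2 GC boxes and no CAGCTG, so that the windows share none of the motifs searched. TATAAA, the letters of a TATA box and present in 12.4% of windows, was in neither.

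Across the set, limma called 0 of the 9 members other than Chrm1 at an adjusted p of 0.05 in the 4 comparisons of the study, where it called 1 probe set of the table in KO vs. WT after stress (0.00348%, Slc6a4) and 0 in the other 3. At an unadjusted p of 0.05 limma called 1 of the 9 members other than Chrm1 (Chrna7) in WT stress vs. con, where 3.54% of all probe sets were called. In a fit that paired WT arrays of equal replicate number, Chrm2 was called too (-0.46, unadjusted p = 0.0372, limma), where 1033 of 28767 probe sets were called. Without WT stress replicate 1 this Chrm2 difference was -0.19. Among the other alternatives, 2 of the 9 were called with the pallial or the striatal score as covariate and without WT stress replicate 5. Without KO con replicate 1 and WT con replicate 1, 3 were. In KO stress vs. WT stress limma on all 20 arrays again called 1 of 9 (Chrna7), against 9.28% of all probe sets. It called 0 of 10 in KO stress vs. con (1.13% of all) and 0 of 10 in KO con vs. WT con (3.57% of all). For the interaction it called 1 of 9 (Chrna7), against 2.52% of all. The study combined a fold over 1.5 with an unadjusted p of 0.05, and by this criterion 0 of the 9 other members were called in any of the 4 comparisons, where 0.24% of all probe sets met it in WT stress vs. con, 0.768% in KO vs. WT after stress, 0.139% in KO stress vs. con and 0.0487% in KO con vs. WT con.

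The 8 members besides Chrm1 and Chrna7 had differences from -0.46 (Chrm2) to 0.29 (Chrm4) in WT stress vs. con, 4 above and 4 below 0, where 62.8% of all probe sets lay above. In KO stress vs. WT stress they ranged from -0.28 (Chrm3) to 0.42 (Chrm2), 6 above and 2 below 0, where 41.3% of all lay above. In KO stress vs. con they ranged from -0.35 (Chat) to 0.06 (Chrm5), with 1 of 8 above 0, against 48.5% of all. Their 95% intervals reached from -1.10 to 0.97 in WT stress vs. con. The 4 comparisons share groups, and their values are therefore not independent of each other. The shares of all probe sets above 0 depended on scaling. In WT stress vs. con 18058 probe sets lay above 0, and 13981 after quantile normalization. In KO stress vs. WT stress the 2 counts were 11870 and 14384. The members were counted here without that normalization.

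Averaged over both conditions, 7 of the 9 members other than Chrm1 were higher in KO than in WT mice, where 44.8% of all probe sets were, with differences from -0.13 (Chrm3) to 0.26 (Chrm5) and a median of 0.18. At an unadjusted p of 0.05 limma called 0 of these 9, where 12% of all probe sets were called. Averaged over both genotypes, stress minus con ranged from -0.24 (Chrm2) to 0.11 (Chrna7), and 0 of 9 were called where 1.67% of all probe sets were.

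**Figure D4:**
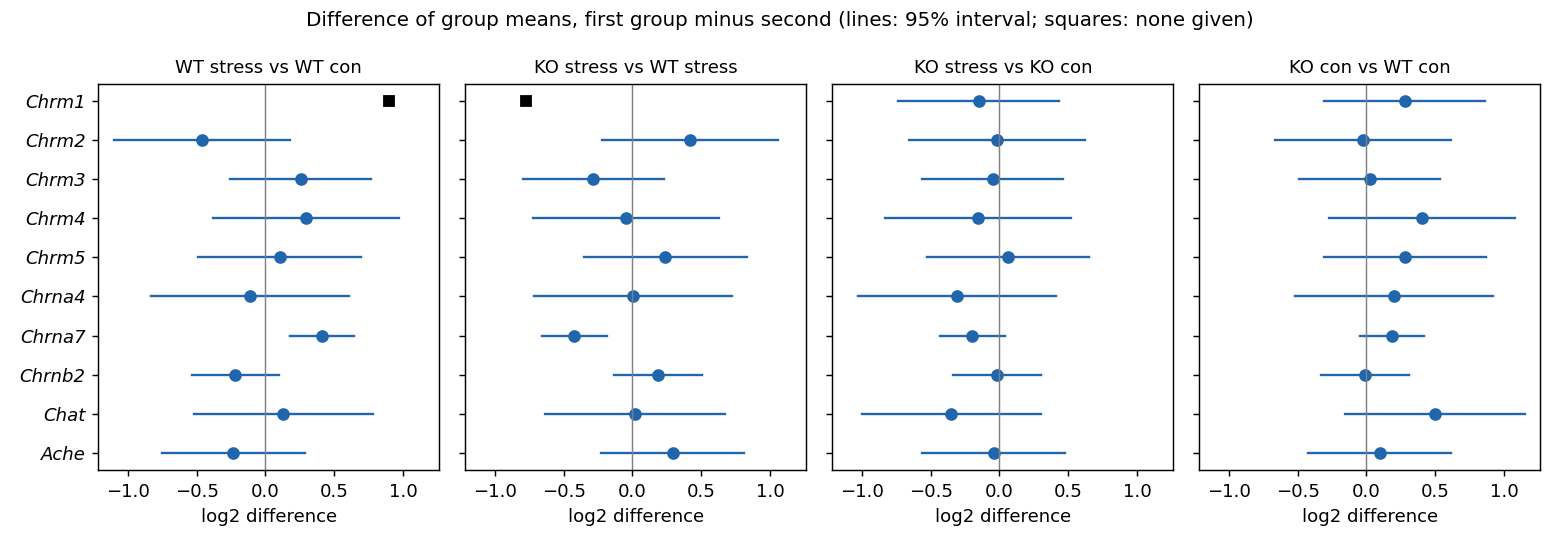
Difference of group means (log2, first group minus second) for the 10 members in the 4 comparisons. Points are estimates with lines for 95% intervals of limma, and squares mark the 2 Chrm1 values that led to the choice of these genes and carry no interval. Only the Chrna7 intervals in WT stress vs. WT con and in KO stress vs. WT stress leave out 0.

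Among 24 other measured genes of cholinergic transmission (transporters, esterase partners, nicotinic subunits, and assembly and Ly6 proteins), 16 were higher and 8 lower in WT stress vs. con, with a median of 0.06 against 0.03 over all probe sets, of which 62.8% were higher. At an unadjusted p of 0.05, 0 of them were called higher and 1 lower, where 3.54% of all probe sets were called. This was Ly6h, a membrane-bound protein that restrains nicotinic receptors including alpha7, whose level was 8.02 ± 0.18 in KO stress, 7.66 ± 0.32 in WT stress and 8.04 ± 0.19 in WT con. Its difference in WT stress vs. con was -0.38 (95% interval -0.66 to -0.10, adjusted p = 1.00, limma), in the direction opposite to Chrna7.

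In KO stress vs. WT stress, 2 of the 24 genes were called higher and 2 lower at the same unadjusted limit, where 9.28% of all probe sets were called. Ly6h was higher by 0.36, and Tmem35a, a chaperone needed for the assembly of alpha7 receptors, by 0.42 (95% interval 0.04 to 0.81). For Tmem35a, WT stress replicate 1 was at 7.39 and the other WT stress arrays at 8.13 to 8.54. The nicotinic subunits Chrna2 and Chrnd were lower (-0.22 and -0.18), with group means of 5.18 to 5.43, near the lower end of the table at 4.09. Chrnd, a subunit of muscle receptors, was also called lower in KO con vs. WT con (-0.16). All 4 genes had an adjusted p of 0.530 after stress (limma).

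Of 10 measured genes of the Gq arm, the signalling chain behind M1, M3 and M5, 1 was called in WT stress vs. con at an unadjusted p of 0.05 (3.54% of all probe sets) and 2 in KO stress vs. WT stress (9.28% of all). The gene called in both was Kcnq3, a subunit of the M-current potassium channel that muscarinic receptors close. Kcnq3 levels were 9.61, 9.01, 9.49, 9.37 and 9.24 in KO stress, and 10.18, 9.41, 9.68, 9.23 and 9.71 in KO con. They were 9.66, 9.79, 9.75, 9.98 and 9.94 in WT stress, and 9.65, 9.69, 9.06, 9.21 and 9.31 in WT con. Every WT stress array lay above every KO stress array, and 1 WT con array reached above the lowest WT stress array. The differences were -0.48 for KO stress vs. WT stress (95% interval -0.81 to -0.15, adjusted p = 0.530, limma) and 0.44 for WT stress vs. con (95% interval 0.11 to 0.77, adjusted p = 1.00, limma).

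The second gene called after stress, the phospholipase Plcb3, was higher by 0.25 in KO stress vs. WT stress (95% interval 0.05 to 0.45). Of 10 genes of the Gi and Go arm, 0 were called in WT stress vs. con (3.54% of all probe sets) and 2, both higher, in KO stress vs. WT stress (9.28% of all), the G protein subunits Gnai1 (0.44, 95% interval 0.06 to 0.82) and Gnai2 (0.36, 95% interval 0.10 to 0.62). WT stress replicate 1 was the lowest of its group for Plcb3 (7.11), Gnai1 (9.91) and Gnai2 (10.05). The other WT stress arrays lay at 7.35 to 7.75, 10.49 to 10.77 and 10.61 to 10.85. Differences without this array are not given for these genes. The list medians were 0.07 for the Gq arm and -0.05 for the Gi and Go arm in WT stress vs. con, beside 0.03 for all probe sets.

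Marker lists of the cell types in the tissue were counted in the same comparisons. Of all probe sets, 41.3% lay above 0 in KO stress vs. WT stress and 62.8% in WT stress vs. con, shares that depended on scaling as given above. An unadjusted p of 0.05 was passed by 9.28% and 3.54% of all probe sets. Of 19 pallial excitatory neuron markers, 14 were lower in KO stress vs. WT stress (median -0.27) and 18 were higher in WT stress vs. con (median 0.33), and 1 and 2 of them passed an unadjusted p of 0.05 in that direction. Their mean level was 7.81 to 8.70 in KO stress, 7.87 to 8.85 in KO con, 8.02 to 8.93 in WT stress and 7.94 to 8.29 in WT con, and none of the 19 had a mean level under 5. Of 15 GABAergic markers, 11 were higher in KO stress vs. WT stress (median 0.32) and 11 were lower in WT stress vs. con (median -0.32), and 4 and 3 of them passed the same limit. In KO stress vs. WT stress, 12 of 14 hypothalamic and medial amygdala markers (median 0.42, 3 passed), 10 of 10 meningeal markers (0.56, 1 passed), 9 of 10 choroid plexus markers (0.56, 0 passed) and 9 of 10 astrocyte markers (0.16, 3 passed) were higher as well, and 0 markers of any of these lists passed an adjusted p of 0.05 (limma). In WT stress vs. con, 8 of 10 choroid plexus markers were higher (median 0.41) and 8 of 10 astrocyte markers lower (median -0.10), and 0 and 1 of them passed. Of 11 thalamic marker probe sets, 9 were lower in WT stress vs. con (median -0.33) and 9 higher in KO stress vs. WT stress (median 0.20). Of 17 striatal and central amygdala markers, 14 were higher in WT stress vs. con (median 0.28) and 9 in KO stress vs. WT stress (median 0.04). In these 2 lists 0 passed. The part of these other cell types in the results was not tested, apart from a striatal score used as covariate. With the pallial score as covariate, the Chrm1 difference was -0.60 for KO stress vs. WT stress and 0.63 for WT stress vs. con, and the Chrna7 differences were -0.42 and 0.42. With the striatal score in its place they were -0.80 and 0.83 for Chrm1, and -0.42 and 0.40 for Chrna7. Whether the share of pallial neurons in the dissected tissue took part in these results beyond the pallial covariate was not tested.

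**Figure D5:**
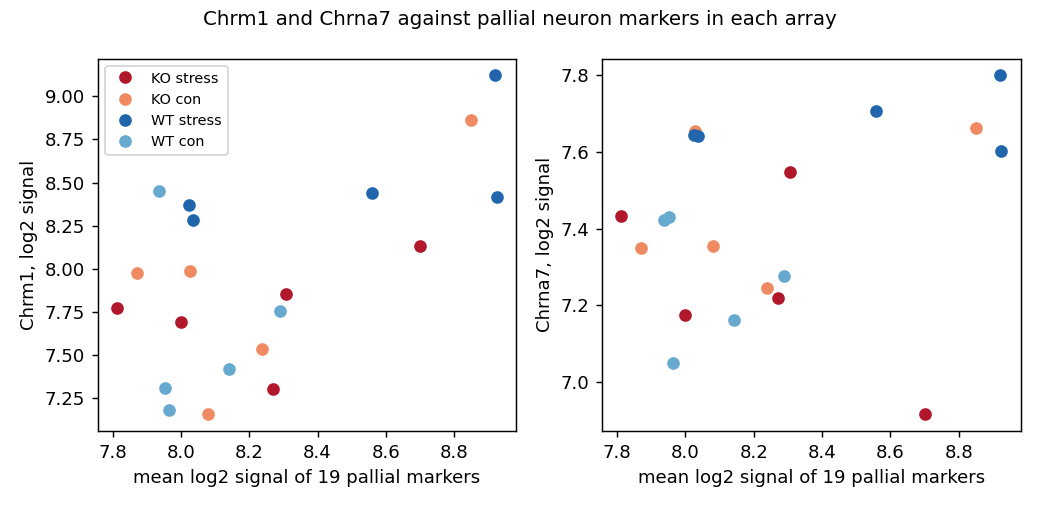
Log2 signal of Chrm1 and of Chrna7 against the mean log2 signal of 19 pallial neuron markers, 1 point per array, coloured by group. Chrm1 went with the markers at r = 0.60 over 20 arrays and Chrna7 at r = 0.28, and the 5 WT stress arrays lie above the 5 KO stress arrays for both genes.

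The members differed in the markers they went with over the 20 arrays. These correlations describe arrays of 4 groups that share a dissection, and they carry no test. Chrm1 had r = 0.60 (rho = 0.37) with the pallial score, which was 0.47 after group means were subtracted. Chrna7 had r = 0.28 and -0.02 in the same 2 measures. Pallial markers were not the only ones that Chrm1 went with. It had r = -0.54 (rho = -0.66) with thalamic markers, and -0.51 with group means subtracted. With striatal and central amygdala markers the 2 values of r for Chrm1 were 0.37 and 0.45. Chrm4 went with striatal and central amygdala markers (r = 0.92, and 0.92 with group means subtracted), the territory in which M4 receptors are known to be dense. Chrm3 ran against the same markers (r = -0.77 and -0.83). Chrna4 and Chrnb2 went with thalamic markers (r = 0.85 and 0.76), and thalamus is a known site of dense alpha4 beta2 receptors. Ache and Chrm5 went with cholinergic neuron markers, Chat, Slc18a3 and Slc5a7 left out of that score (r = 0.83 and 0.84), and with each other (r = 0.80). With Chat itself r was 0.70 for Ache and 0.63 for Chrm5, and with Slc18a3 0.62 and 0.48. Both also went with GABAergic markers (r = 0.76 and 0.64) and ran against pallial markers (r = -0.68 and -0.66).

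Among the members themselves, Chrm1 and Chrm2 ran against each other with r = -0.72 (rho = -0.81), and with r = -0.68 once group means were subtracted. Chrm1 and Chrna7 had r = 0.67, which was 0.43 with group means subtracted. Chrm1 was nearly unrelated to Chat (r = 0.08) and to Chrm3 (r = 0.06). The lowest Chrm2 level of all arrays, 8.08, was in WT stress replicate 1, and the highest Chrm1 level, 9.12, in WT stress replicate 4.

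The genes whose values were most like those of Chrm1 over the 20 arrays, with group means subtracted, were Smad3 (r = 0.94), Rgs14 (r = 0.93), Grasp (r = 0.92), Mmp17 (r = 0.91), Cnksr2 (r = 0.90), Hrk (r = 0.89), Ano3 (r = 0.89) and Bcl11b (r = 0.88). The Ano3 values are those of probe set 10485718, whereas the study listed Ano3 by another probe set. Smad3 is a transcription factor of TGF-beta signalling, Rgs14 a regulator of G protein signalling, and Bcl11b a transcription factor of projection neurons. All 8 had positive differences in WT stress vs. con, from 0.17 (Hrk) to 0.96 (Ano3), and negative ones in KO stress vs. WT stress, from -0.74 (Ano3) to -0.21 (Hrk). They were picked for likeness within groups to a gene chosen on its group means, and their differences are a description.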

How the data were processed

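RNA of the amygdala of 20 mice was measured on Affymetrix Mouse Gene 1.0 ST arrays. The authors summarized and normalized the probe signals in ArrayAssist by the ExonRMA method, made the variance stable and deposited log2 values of 28767 probe sets, and the base of the logarithm was taken from the range of the values (4.09 to 14.24). Arrays have no read depth, and their number limits the precision. Summaries of this kind shrink differences of dim probe sets. All 20 columns were joined to groups by the labels and used without further scaling. Of the probe sets, 21776 had 1 symbol, 1618 several and 5373 none.

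The test was limma 3.58.1 in R 4.3.3, with lmFit on 4 group means and eBayes (16 residual and 2.10 prior degrees of freedom), contrasts for the 4 comparisons of the study, the interaction and the averages, and Benjamini-Hochberg adjustment over all probe sets at 0.05. The code was tested on simulated data. Members, lists and tests were chosen with earlier results of these data known. Named besides the members were Slc6a4, genes of the 3 signalling lists with an unadjusted p under 0.05 in a group comparison, the 8 probe sets most correlated with Chrm1, and Slc18a3 and Slc5a7. Differences of single members under 0.25 were given as ranges, with few exceptions. A list score is the mean of its markers per array, each centred over the 20 arrays. For correlations, the score of cholinergic neurons left out Chat, Slc18a3 and Slc5a7.

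Arrays carry a biological replicate number of 1 to 5 within each group, whose meaning the labels leave out. Deviations from group means of WT stress and WT con arrays with equal numbers correlated at 0.162 to 0.420 in the 5 pairs, and no other pair of groups had all 5 above 0.1, so a replicate block was fitted for the WT groups as an alternative. Further alternatives included an unpaired t-test on each pair of groups, as in the methods, here with the variance pooled over the pair. Its Welch form, with a variance per group, was run too. Other normalizations and filters, array weights, marker scores as covariates and each array left out were also among them. Promoter sequences are those of RefSeq on GRCm38.p6, in which 9 of the 10 members matched an entry. Plots were made in Python 3.11.15 (matplotlib 3.10.9).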

Additional observations from a re-analysis of the deposited data

Results flagged for a closer look

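In 10 of 88 groups of 5 arrays, over 22 genes, a single array stood apart from the other 4. Chance would give about 1 in 20 groups (4.40) if the groups were independent. They reuse the same 20 arrays and hold genes that varied jointly, so an excess over chance is not shown. WT con replicate 1 was that array in 6 of the 10. It was the lowest of WT con for Chrm2 (8.91) and the highest of WT con for Chrm4 (9.08), Slc18a3 (8.22), Slc5a7 (8.16), Chrna2 (5.44) and Chrnd (5.59). WT stress replicate 4 was apart from its group for Chrm1 (9.12, the next array being at 8.44), and WT stress replicate 1 for Chrnd (5.58). KO stress replicate 5 was apart for Chrm3 (9.09), and WT con replicate 2 for Chrna4 (9.60).

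The stress difference in KO minus that in WT had an unadjusted p under 0.05 for 4 genes, with Chrm1 left out of this test. It was -0.61 for Chrna7, -0.74 for Kcnq3, -0.28 for Chrna2 and 0.48 for Ly6h, and none passed the adjustment over all probe sets (adjusted p = 1.00 each, limma). Of all probe sets, 2.52% had an unadjusted p under 0.05 for this difference. Kcnq3, Chrna2 and Ly6h had been named for such a p in KO stress vs. WT stress, which enters this difference. That choice favours a low p here, so these values are a description.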

How the results depend on the processing

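Chrm1 and Chrna7 kept the direction of their differences in WT stress vs. con, in KO vs. WT after stress and in the interaction under every alternative run. Many alternatives change only the test, the filter or an array outside the comparison, and these cannot move the difference. The Chrna7 groups did not overlap in the first 2 comparisons, so leaving out 1 array could not reverse either. Chrm1 was chosen on these differences, so its kept direction is a description. Over the arrays left out in turn, the Chrm1 difference was 0.75 to 1.11 in WT stress vs. con, -0.87 to -0.63 in KO vs. WT after stress and -1.26 to -0.81 in the interaction. With the replicate block in the WT groups alone the Chrm1 difference was 0.90 and that of Chrna7 0.41, as in the main fit. Both WT groups hold the same replicate numbers, so this block cannot move a difference of means and alters only its SE and p. Under this block or any other alternative, 0 of the 9 members other than Chrm1 passed the adjusted threshold. The Chrm1 difference in KO stress vs. con turned to 0.089 without KO con replicate 1, with a range of -0.34 to 0.089 over the arrays left out, and was also 0.089 without KO con replicate 1 and WT con replicate 1, a setting chosen after seeing the data. The Chrm3 difference in WT stress vs. con turned to -0.023 with the pallial score as covariate. By the criterion of the study, 0 of the 9 members other than Chrm1 were called in KO con vs. WT con, against 2 with array weights (Chat and Chrm4), 1 with the pallial score as covariate (Chat), 1 without WT con replicate 1 and WT stress replicate 1 (Chrm4) and 0 to 1 over the arrays left out. In WT stress vs. con 0 of the 9 met it, and 1 did without KO con replicate 1 and WT con replicate 1 (Chrm2). The cause was not tested in these cases. The probe sets that met the criterion numbered 69 in WT stress vs. con (30 to 237 over the alternatives, 41 to 223 over the arrays left out), 221 in KO vs. WT after stress (109 to 342, and 107 to 562), 40 in KO stress vs. con (27 to 90, and 11 to 82) and 14 in KO con vs. WT con (6 to 97, and 8 to 87).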

Other observations

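Markers of cholinergic neurons were lower in KO stress vs. con for 7 of 7 measured genes (median -0.18), where 48.5% of all probe sets were higher. They were higher in KO con vs. WT con for 7 of 7 (median 0.27), where 14404 of 28767 probe sets were. Of these markers, 0 had an unadjusted p under 0.05 in either comparison (limma), where 1.13% and 3.57% of all probe sets were called. Chat, Slc18a3 and Slc5a7 are among these 7, and KO con enters both comparisons. These directions were not particular to cholinergic markers. Of 17 striatal and central amygdala markers, 15 were lower in KO stress vs. con (median -0.15) and 16 higher in KO con vs. WT con (median 0.50). Of 10 microglia markers 9 were lower and 8 higher, and of 9 oligodendrocyte markers 8 and 7. Choroid plexus markers (10 of 10 higher, 10 of 10 lower) and meningeal markers (10 of 10 higher, 8 of 10 lower) went the other way.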
